A study of Bactrocera dorsalis with 3 samples.

Results

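In the fruit fly Bactrocera dorsalis, embryos 5-8 hours post-oviposition (hpo) were set against newly laid eggs of 0-1 hpo, gene by gene. The genes compared were those with an FPKM (fragments per kilobase of exon scaled to the library total) of 1 or more in either library, which left 8148 of 13489 gene models. The study sequenced poly-A-selected RNA from embryos in 3 windows of age, 0-1, 2-4 and 5-8 hpo, with 1 library per window. The labels separate the libraries by age alone and name no treatment. The sources used here do not state strain, sex, rearing or the number of embryos behind each library. With 1 library per age no difference had a replicate check, so no p-value is given and genes are described by the size of their net difference.

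In insects the mother loads the egg with messenger RNA before laying, and the first steps of development run on that supply. The embryo then starts to transcribe its own genome while much of the maternal RNA is destroyed, a handover known as the maternal-to-zygotic transition. A 0-1 hpo library holds the maternal supply, whereas a 5-8 hpo library can hold maternal RNA that survived and zygotic RNA made since. A net difference between them can combine both, and in whole embryos fewer cells of a type and less RNA per cell cannot be told apart. Because the RNA was captured by its poly-A tail, a change in tail length and a change in amount cannot be told apart either.

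Reads assigned to genes numbered 74817640 at 5-8 hpo and 68140879 at 0-1 hpo. Genes with at least 1 read numbered 11356 at 5-8 hpo and 9540 at 0-1 hpo. The absence of reads allows a level of up to 0.0401 RPM (reads scaled by the library total) at 5-8 hpo and 0.0440 RPM at 0-1 hpo, which is what 3 reads amount to. The 95% exact intervals printed after folds come from the 2 read counts, and like these floors they cover counting error only. FPKM is relative to the library total, so the amount of RNA per embryo was not measured.

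At 5-8 hpo 879 of the 8148 genes (10.8%) were higher by 4-fold or more, and 844 (10.4%) were lower by as much, on the log2(FPKM + 1) scale, where 1 is a pseudocount that understates the change of low genes. The balance of higher and lower genes differed with the size of the net difference. At 2-fold, 1940 genes (23.8%) were higher and 2215 (27.2%) lower, so higher genes made up 46.7% of the differences. The share of higher genes was 51.0% at 4-fold (95% Clopper-Pearson interval 48.6 to 53.4), 58.7% at 8-fold and 63.7% at 16-fold. At 16-fold there were 247 higher genes (3.03%) and 141 lower genes (1.73%). Of the 247, 102 had FPKM 0 at 0-1 hpo, 56 had up to 0.1 and 55 had from 0.1 to 1. Of the 141, 2 had FPKM up to 0.1 at 5-8 hpo and 36 had from 0.1 to 1. The larger share of higher genes at high folds thus rests in part on genes that the filter let in only at 5-8 hpo. It is a description only. Past 64-fold 60 genes were higher and 12 lower, and higher genes made up 83.3%. Past 128-fold 22 were higher and 6 lower, a share of 78.6%, so the share did not rise at every step. All 8 genes past 256-fold on this scale were higher at 5-8 hpo.

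The balance at 2- and 4-fold changed sides with scaling, while that at 8-fold and beyond stayed on the side of higher genes in the 4 scalings compared. The median log2 difference of all genes compared was -0.17 as deposited, -0.28 on the TPM scale and -0.02 after median-of-ratios scaling. Under TPM 1011 genes were at least 4-fold higher and 1061 lower. After median-of-ratios scaling 2130 genes were at least 2-fold higher and 1971 lower. Over 4 scalings, higher genes made up 57.6% to 63.3% of the 8-fold differences and 82.8% to 85.3% of the 64-fold ones. Read against the median shift of -0.17, a gene with equal FPKM at both ages stood slightly above the typical gene.

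**Figure D1:**
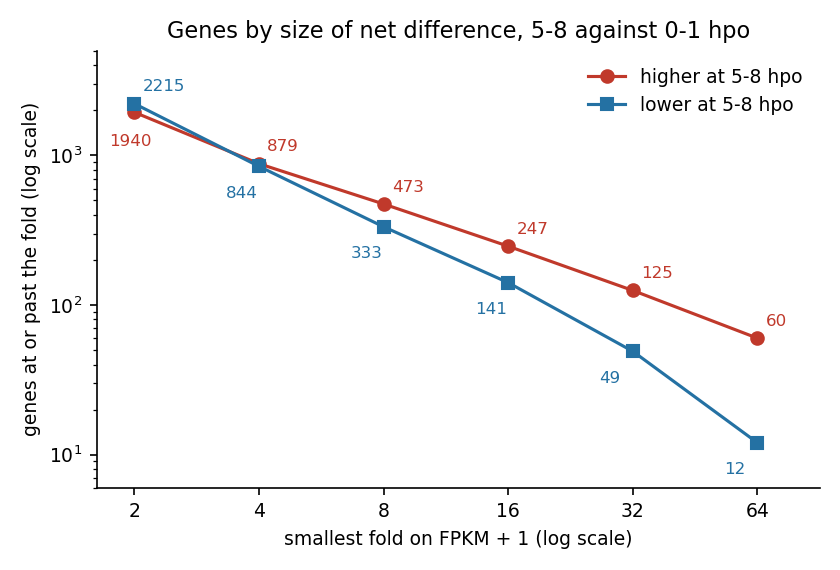
Number of genes at or past each fold on FPKM + 1 (log axes), 5-8 against 0-1 hpo, 1 library each, with genes higher at 5-8 hpo as red circles and genes lower at 5-8 hpo as blue squares. The lines cross between 2-fold (1940 higher, 2215 lower) and 4-fold (879 higher, 844 lower) and then part, to 60 higher and 12 lower genes at 64-fold.

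The 4-fold threshold fell inside a continuous range of values. The mitochondrial gene ND4 was the last gene inside it on the higher side, at a log2 difference of 2.00, with FPKM 464 at 5-8 hpo and 115 at 0-1 hpo. LOC105225774 was the first outside it, at 1.99, with FPKM 22.8 at 5-8 hpo and 4.96 at 0-1 hpo. On the lower side LOC105229166 was just inside, with FPKM 15.99 at 5-8 hpo and 67.1 at 0-1 hpo. LOC105229462 was just outside, with FPKM 0.293 at 5-8 hpo and 4.16 at 0-1 hpo. Its ratio without the pseudocount was larger than that of LOC105229166, which shows how far the pseudocount holds back low genes.

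**Figure D2:**
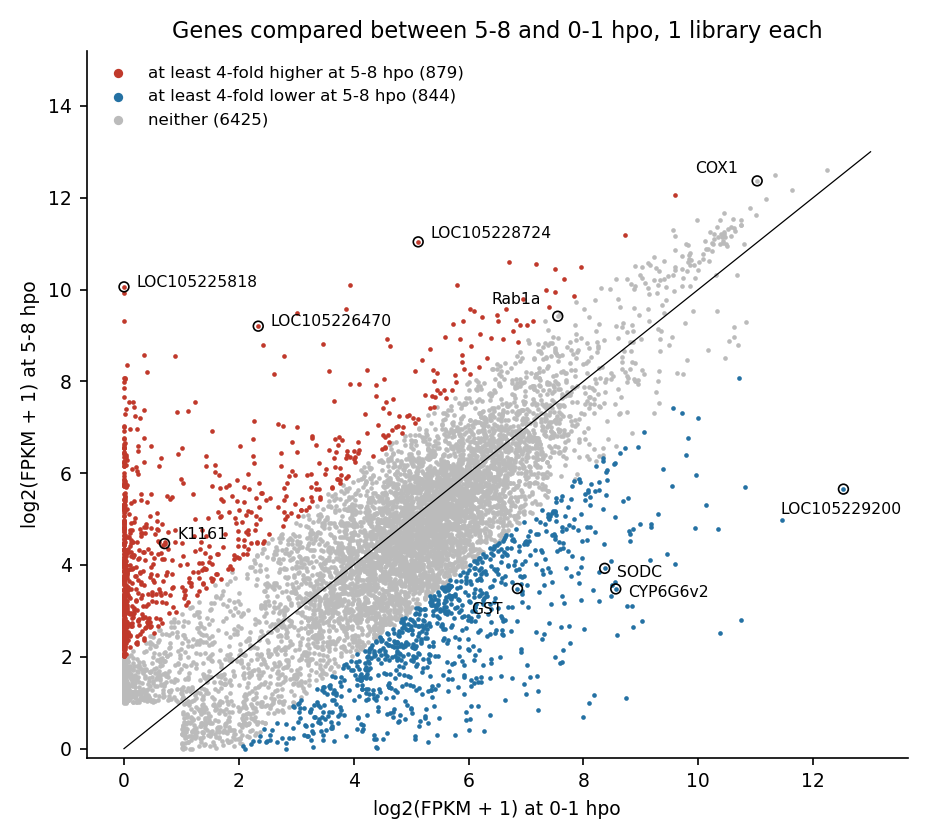
Each point is 1 of the 8148 genes compared, with log2(FPKM + 1) at 0-1 hpo on the x axis and at 5-8 hpo on the y axis, 1 library each, and the line marks equal values. Genes at least 4-fold higher at 5-8 hpo (879, red) crowd the left edge near 0, while genes at least 4-fold lower (844, blue) spread from low to high 0-1 hpo levels.

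Higher and lower genes differed in where they started. The 879 higher genes had a median FPKM of 19.3 at 5-8 hpo and 0.160 at 0-1 hpo, and 243 of them had 0 reads at 0-1 hpo. The 844 lower genes had a median of 4.86 at 5-8 hpo and 46.9 at 0-1 hpo, and 2 of them had 0 reads at 5-8 hpo. Most of the large gains were therefore genes barely seen in the egg, whereas the large losses left a measurable remainder. The same held at 16-fold, where 102 of 247 higher genes had 0 reads at 0-1 hpo and 0 of 141 lower genes had 0 reads at 5-8 hpo. The median FPKM of the 141 was 2.05 at 5-8 hpo and 98.4 at 0-1 hpo. Genes below FPKM 1 at 1 age entered the comparison through the other age alone. Among protein-coding genes, 467 of the 745 higher ones were below FPKM 1 at 0-1 hpo. Of the 770 lower ones 114 were below FPKM 1 at 5-8 hpo. The contrast thus rests in part on genes that the filter let in only at the age where they were high.

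Sorted by their level in the egg, genes at the bottom could only gain and genes at the top mostly held or lost. Of 422 genes with 0 FPKM at 0-1 hpo, 243 were at least 4-fold higher at 5-8 hpo. Among 1246 genes between FPKM 1 and 10 in the egg, 172 were higher and 57 lower. Among 4794 genes between 10 and 100, 110 were higher and 575 lower, and between 100 and 1000 there were 18 higher and 203 lower among 941. The 65 genes above FPKM 1000 in the egg broke this order. None of them was at least 4-fold higher and 9 were at least 4-fold lower, but their median log2 difference was 0.62, against -0.55 in the class below. The floor of the scale limits how far low genes can fall and the filter selects low genes that gained, so the bottom classes are a description only. The sorting also uses 1 of the 2 values compared, which by itself tilts high classes towards loss. Sorted by level at 5-8 hpo, the tilt was reversed. Between FPKM 100 and 1000 there were 131 higher and 6 lower among 834 genes, and between 1 and 10 there were 273 higher and 469 lower among 2346. No direction is therefore read from these classes.

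The lower genes took a larger share of the egg library than the higher genes took of the 5-8 hpo library. Genes at least 4-fold lower at 5-8 hpo held 2.02% of reads at 5-8 hpo and 19.4% at 0-1 hpo. Genes at least 4-fold higher held 14.9% of reads at 5-8 hpo and 1.504% at 0-1 hpo. The 3993 genes within 2-fold took 56.3% of reads at 5-8 hpo and 53.1% at 0-1 hpo, so most reads at both ages came from genes with little net difference. Transcripts of the mitochondrial genome took 2.18% at 5-8 hpo and 1.04% at 0-1 hpo.

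A gene was called switched on where its FPKM reached 5 at 5-8 hpo and was under 1 in the egg, and switched off in the reverse case. By this rule 492 genes (6.04% of those compared) were switched on and 125 (1.53%) switched off. The 492 had a median FPKM of 14.5 at 5-8 hpo and 0.0150 at 0-1 hpo, and 190 of them had 0 reads at 0-1 hpo. The 125 had a median of 0.586 at 5-8 hpo and 11.6 at 0-1 hpo, and 1 had 0 reads at 5-8 hpo. Genes switched on outnumbered those switched off, although at 4-fold the numbers of higher and lower genes were nearly even. By the rule, every gene of both groups was below FPKM 1 at 1 age and entered the comparison through the other age alone. The low medians and the genes without reads follow in part from that rule, so these counts are a description only. With FPKM 10 in place of 5 the counts were 314 on and 76 off.

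The largest gains were genes known only by an identifier, and 6 of the top 10 had no reads in the egg. LOC105225818 and LOC105227214 led, with FPKM 1064 and 971 at 5-8 hpo and 0 reads each at 0-1 hpo. LOC105224159 (NW_011876298.1, plus strand, 95184 to 96274, 1 exon) stood at FPKM 632 at 5-8 hpo and had 0 reads at 0-1 hpo. Taking 3 reads for the 0, it was at least 15650.2-fold higher. Single-exon here means that the listed exonic length equals the span of the model.

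Among gains from a measured level, LOC105233509 (NW_011876153.1, plus strand, 92695 to 116160, several exons) had 86956 reads at 5-8 hpo and 8 at 0-1 hpo. Its FPKM was 325 at 5-8 hpo and 0.0328 at 0-1 hpo, 9899.5-fold higher (5024 to 22931). LOC105223282 (NW_011876270.1, minus strand, 713095 to 714881) stood at 380 at 5-8 hpo and 0.270 at 0-1 hpo, 1408-fold higher (974 to 2119). These folds rest on few egg reads, which is why their intervals span a factor of more than 2. LOC105232308 had 34497 reads at 5-8 hpo and 1 at 0-1 hpo, a ratio of 31419 with an interval from 5639 to 1241000.

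LOC109579409 and LOC105231315 also had 0 reads at 0-1 hpo, and reached FPKM 252 and 232 at 5-8 hpo, at least 4395-fold and at least 4943-fold higher. LOC105222520 (NW_011876243.1, minus strand, 138585 to 139951, 1 exon) followed another course. It had 1 read at 0-1 hpo, FPKM 698 at 2-4 hpo and 264 at 5-8 hpo, so its net gain was smaller than its earlier gain. The ratio of 5-8 to 0-1 hpo was 24603 (4415 to 971812). The remaining member of the 10, the unnumbered model Novel00193, is described with the models of its kind.

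The largest losses were maternal transcripts that fell at both steps. The most abundant transcript of the egg, LOC105229200 (NW_011876379.1, plus strand, 109502 to 112470, several exons), had 8908 reads at 5-8 hpo and 971520 at 0-1 hpo. Its FPKM was 49.3 at 5-8 hpo, against 5904 at 0-1 hpo, 120-fold lower (117 to 122). At 2-4 hpo it stood at 465, so it had lost most of its level by then. LOC105222463 (NW_011876240.1, minus strand, 551069 to 551901, 1 exon), also among the 5 most abundant of the egg, had FPKM 30.5 at 5-8 hpo, against 2798 at 0-1 hpo, a 91.7-fold loss (87.6 to 96.0).

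Without the pseudocount the steepest of the 10 largest losses was that of LOC105233962 (NW_011876189.1, plus strand, 379933 to 390258), with FPKM 0.623 at 5-8 hpo, against 254 at 0-1 hpo, 408-fold lower (358 to 468). LOC105227883 had 1.14 at 5-8 hpo, against 429 at 0-1 hpo, a 376-fold loss (305 to 469). LOC105232017 had 1.24 at 5-8 hpo, against 291 at 0-1 hpo, a 235-fold loss (195 to 285). At 5-8 hpo 221, 88 and 113 reads remained for these 3 genes, and the smaller count sets the width of each interval. LOC105225218, with 0.786 at 5-8 hpo and 147 at 0-1 hpo, was 187-fold lower (161 to 219), while LOC105234078 was 87.7-fold lower (81.5 to 94.5).

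**Figure D3:**
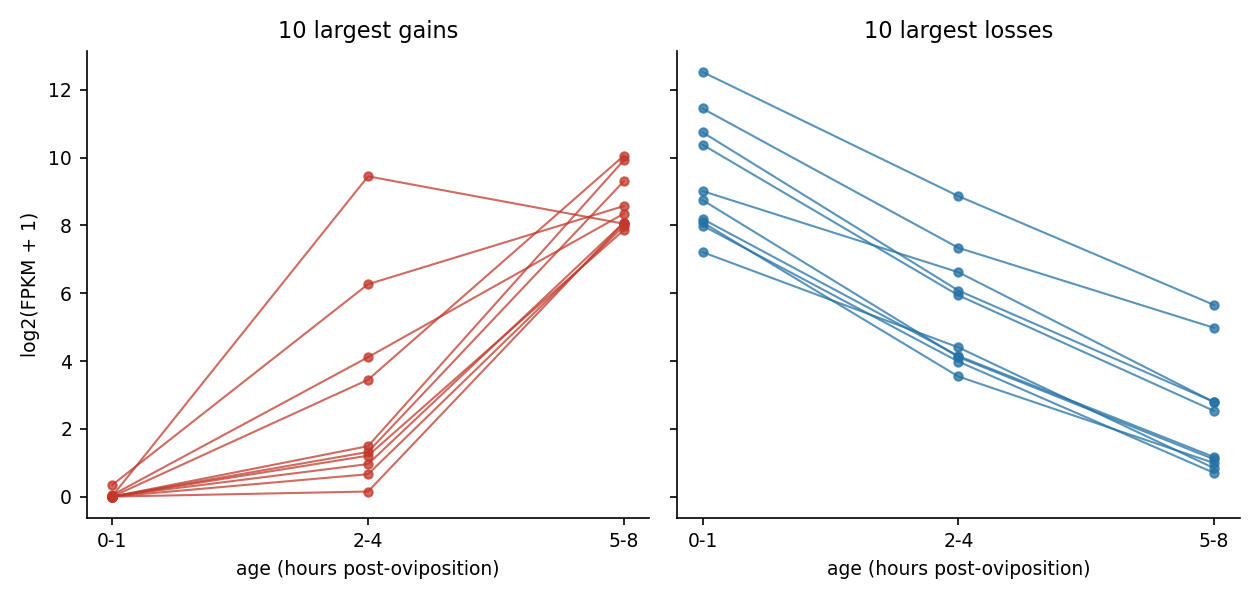
log2(FPKM + 1) by age (0-1, then 2-4, then 5-8 hpo, 1 library each) for the 10 genes with the largest gains (left, red) and the 10 with the largest losses (right, blue) between 0-1 and 5-8 hpo among genes at FPKM 10 or more in either library. At 2-4 hpo 7 of the 10 gains are below FPKM 10, LOC105233509 and LOC105223282 are at 16.3 and 76.0 and LOC105222520 is at its highest (698), while all 10 losses fall at both steps.

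The 2-4 hpo library places these net differences in time. For the higher genes medians of 0.160, 0.803 and 19.3 FPKM were found in order of age, and 412 of the 879 were at FPKM 1 or more at 2-4 hpo. For the lower genes the medians were 46.9, 21.1 and 4.86, and 831 of the 844 were still at FPKM 1 or more at 2-4 hpo. On the log2(FPKM + 1) scale 117 of the 879 higher genes (13.3%) were nearer at 2-4 hpo to their 5-8 hpo level than to their 0-1 hpo level. For lower genes this was 288 of 844 (34.1%). Over all genes compared the share was 34.3%, so the lower genes stood at that background. Most of the higher genes were still nearer to their egg level at 2-4 hpo.

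The same share differed among narrower groups. Of the 141 genes at least 16-fold lower, 62 (44.0%) were nearer at 2-4 hpo to their 5-8 hpo level, and of the 125 genes switched off, 66 (52.8%) were. The corresponding numbers were 41 of the 247 genes at least 16-fold higher (16.6%) and 52 of the 492 switched on (10.6%). Among the 3993 genes within 2-fold it was 43.1%, close to that of the 141, so no order by size of loss is read from these shares. Some genes did not move in 1 direction. Of the higher genes 141 (16.04%) were lower at 2-4 hpo than at both other ages, against 31.5% over all genes compared. Of the lower genes 97 (11.5%) were higher at 2-4 hpo than at both other ages, against 21.99% over all. Among the 3993 genes within 2-fold the shares were 44.9% below both ages and 31.2% above both. A wide gap between the end ages leaves less room outside it, so the smaller shares of called genes follow in part from their selection.

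The most abundant transcripts overlapped in large part between the ages. The 100 most abundant genes of each age had 71 in common, and the 20 most abundant had 10 in common. Of the top 100 at 5-8 hpo, 10 were at least 4-fold higher than at 0-1 hpo. Of the top 100 at 0-1 hpo, 15 were at least 4-fold lower at 5-8 hpo and 1 was higher. Over all genes compared 10.8% were higher and 10.4% lower by as much, so the 10 stood at that background. Each top 100 was picked by level at an age being compared. This by itself tilts the 5-8 hpo set towards gain and the 0-1 hpo set towards loss. No direction is therefore read from these counts, and the genes described from them are examples only. LOC105233054 was the most abundant transcript at 5-8 hpo and the second at 0-1 hpo, with FPKM 6262 at 5-8 hpo and 4864 at 0-1 hpo, 1.29-fold higher (1.28 to 1.29).

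The 10 genes of the 5-8 hpo top 100 that were at least 4-fold higher all had reads in the egg, and 1 of them, LOC105231497, was in the top 100 at both ages. LOC105228724 (NW_011876374.1, plus strand, 572279 to 580033) reached FPKM 2101 at 5-8 hpo, against 33.8 at 0-1 hpo, 62.1-fold higher (59.9 to 64.4). LOC105230054 (NW_011876386.1, minus strand, 928696 to 930111) reached 1087 at 5-8 hpo, against 14.3 at 0-1 hpo, 76.2-fold higher (70.9 to 81.9). Both were between these levels at 2-4 hpo, at 135 and 61.8. LOC105233101 was 20.04-fold higher (19.4 to 20.7), at 1098 at 5-8 hpo and 54.8 at 0-1 hpo. The other 7 were 5.49- to 15.1-fold higher, among them LOC105231497, the fifth most abundant transcript at 5-8 hpo, at 4288 at 5-8 hpo and 775 at 0-1 hpo.

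The 15 abundant egg transcripts that were lower at 5-8 hpo lost their place at different times. LOC105222099 (NW_011876224.1, plus strand, 343962 to 345717, 1 exon) held at FPKM 1680 and 1255 at 0-1 and 2-4 hpo, and stood at 268 at 5-8 hpo, 6.28-fold below the egg. LOC105230264 stood at 1291, 713 and 26.7 at the 3 ages, 48.4-fold lower (45.5 to 51.5) at 5-8 hpo. By contrast LOC105231371 stood at 985, 73.6 and 26.8, with most of its loss before the 2-4 hpo sample. LOC105225211, at 880, 75.5 and 83.2, made its whole loss by then. LOC105234136 and LOC105228039 were higher at 2-4 hpo than in the egg, at 1178 and 1035, before they fell to 108 and 159 at 5-8 hpo.

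Only 68 of the genes compared carried an informative name in the reference table, out of 76 named genes in all. Of these 68, 4 were past 4-fold on the higher side (5.88%) and 5 on the lower side (7.35%), both below the shares over all genes compared. At 2-fold 16 were higher and 20 lower. The 4 higher genes were K1161, the gene listed as 41, CP391 and ND4, and the 5 lower genes were CYP6G6v2, SODC, GST, Ttc17 and L12r1. The named genes were measured at higher levels than the rest, with a median of 52.5 for the larger of the 2 FPKM values. They leave unnamed nearly all of the genes with large differences.

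The 13 genes of the mitochondrial genome encode subunits of the respiratory chain and of ATP synthase. As deposited, 10 of the 13 were higher at 5-8 hpo, 7 at least 2-fold and 1, ND4, at least 4-fold, and none was 2-fold lower. Their median log2 difference was 1.02, against -0.17 over all genes compared. The 3 cytochrome oxidase genes moved by similar amounts: COX1 had FPKM 5277 at 5-8 hpo and 2084 at 0-1 hpo, COX3 had 5725 at 5-8 hpo and 2592 at 0-1 hpo, and COX2 had 2615 at 5-8 hpo and 1287 at 0-1 hpo. The NADH dehydrogenase genes did not. ND4 (4.03-fold), ND2 (2.23-fold), ND5 (2.23-fold) and ND1 (1.55-fold) were higher, while ND3 had FPKM 499 at 5-8 hpo and 749 at 0-1 hpo. ND4L had 61.9 at 5-8 hpo and 75.5 at 0-1 hpo, and ND6 had 55.8 at 5-8 hpo and 61.6 at 0-1 hpo. ND3, ND4L and ND6 are the shortest NADH dehydrogenase models, at 352, 297 and 524 bases, and ND4L overlaps ND4 on the minus strand. The shortest of the 13, ATP8 at 162 bases, was not lower, with FPKM 15.9 at 5-8 hpo and 13.9 at 0-1 hpo (1.15-fold, 0.92 to 1.43). The part of length and of read assignment was not tested. Under TPM 6 of the 13 were at least 2-fold higher and none 4-fold, and after median-of-ratios scaling 11 of the 13 were higher, ND6 being the one that changed sides.

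The listed genes of detoxification and antioxidant defence were lower at 5-8 hpo. Of the 3 cytochrome P450 and glutathione transferase genes, which make foreign and internal compounds more soluble, 2 were at least 4-fold lower, and the median log2 difference was -3.36. GST had FPKM 10.2 at 5-8 hpo and 114 at 0-1 hpo, and GSTT1 had 5.24 at 5-8 hpo and 21.5 at 0-1 hpo. NCPR, the reductase that hands electrons to P450 enzymes, had FPKM 106 at 5-8 hpo and 261 at 0-1 hpo. Of the 2 copper-zinc superoxide dismutase genes, which remove superoxide radicals, SODC was past 4-fold, and Zn-CuSOD had 11.2 at 5-8 hpo and 41.8 at 0-1 hpo. The 5 genes of these lists were lower under all 4 scalings, but they are few and were listed with earlier results known. CP391, whose symbol is that of a Drosophila cytochrome P450 gene, was outside the list and went the other way, with FPKM 3.67 at 5-8 hpo and 0 reads at 0-1 hpo.

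The 5 Rab genes, small GTPases that direct vesicle traffic, went in different directions and none passed 4-fold as deposited. Rab1a, which acts between endoplasmic reticulum and Golgi, had FPKM 683 at 5-8 hpo and 187 at 0-1 hpo, 3.66-fold higher (3.60 to 3.71), and passed 4-fold after median-of-ratios scaling. Rab35, of the endocytic recycling route, had 38.1 at 5-8 hpo, against 123 at 0-1 hpo, 3.23-fold lower (3.12 to 3.34). Rab40 was 2.34-fold lower (2.26 to 2.43), at 53.5 at 5-8 hpo and 125 at 0-1 hpo. Rab5b of early endosomes had 99.4 at 5-8 hpo and 70.1 at 0-1 hpo, and Rab7 of late endosomes had 116 at 5-8 hpo and 122 at 0-1 hpo. The difference for Rab7 changed sign after median-of-ratios scaling.

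In insulin signalling the 2 named genes parted. Irs1, an insulin receptor substrate, had FPKM 12.1 at 5-8 hpo, against 39.4 at 0-1 hpo, 3.24-fold lower (3.10 to 3.39). Akt1, the kinase downstream of it, had 146 at 5-8 hpo and 109 at 0-1 hpo, 1.34-fold higher (1.31 to 1.36), after a low of 47.7 at 2-4 hpo. Among the 4 chaperone genes none passed 4-fold and the median was -0.47. DNAJ1, a co-chaperone of Hsp70, had 82.6 at 5-8 hpo, against 323 at 0-1 hpo, 3.92-fold lower (3.84 to 4.00), and passed 4-fold under TPM. The chaperonin gene CH60 had 155 at 5-8 hpo and 257 at 0-1 hpo, and both genes were lowest at 2-4 hpo.

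Of the 68 named genes compared, 32 were within 2-fold, and the examples here were chosen after their values were seen. Taiman, a nuclear receptor coactivator in Drosophila, had FPKM 8.61 at 5-8 hpo and 7.98 at 0-1 hpo, but 1.79 at 2-4 hpo. Nhk1, a histone kinase, had 51.3 at 5-8 hpo and 39.6 at 0-1 hpo, and Dcp1b, of the mRNA decapping complex, had 53.7 at 5-8 hpo and 42.7 at 0-1 hpo. The single members of the lists for sex determination (tra-2), small RNA machinery (Prkra) and yolk (VIT1) differed by less than 2-fold. The log2 difference of tra-2 was -0.08 as deposited and 0.07 after median-of-ratios scaling. CHS1, a chitin synthase, Rh1, an opsin, and NMDA1, a glutamate receptor subunit, stayed below FPKM 1 at both ages and were not compared. CHS1 had 88 reads at 5-8 hpo and 0 at 0-1 hpo, at least 26.7-fold higher.

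Other named genes that were lower at 5-8 hpo covered several roles. Ttc17, a tetratricopeptide repeat gene, had FPKM 8.05 at 5-8 hpo and 75.2 at 0-1 hpo, L12r1 had 2.34 at 5-8 hpo and 16.1 at 0-1 hpo, and E4f1 had 4.79 at 5-8 hpo and 20.97 at 0-1 hpo. Cc115 had 15.24 at 5-8 hpo, against 50.5 at 0-1 hpo, 3.32-fold lower (3.05 to 3.60), and T126a had 8.27 at 5-8 hpo, against 27.0 at 0-1 hpo, 3.26-fold lower (2.95 to 3.61). Named genes with smaller gains were T53i1, at 72.8 at 5-8 hpo and 31.2 at 0-1 hpo, Ygr4, at 38.2 at 5-8 hpo and 16.001 at 0-1 hpo, and Pihd2, at 31.3 at 5-8 hpo and 14.5 at 0-1 hpo.

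Of 50 long noncoding RNA genes compared, 12 were at least 4-fold higher and 4 lower, but 23 of the 50 had FPKM below 1 at 0-1 hpo and entered through the 5-8 hpo library alone. They include 10 of the 12, so the counts follow in part from the filter on low values and no direction is read from them. Of 7378 protein-coding genes, 745 were higher (10.1%) and 770 lower (10.4%), and 826 of them (11.2%) had FPKM below 1 at 0-1 hpo. The most abundant long noncoding RNA among the higher ones, LOC105226470, had 228766 reads at 5-8 hpo and 1437 at 0-1 hpo. Its FPKM was 588 at 5-8 hpo and 4.05 at 0-1 hpo, 145-fold higher (138 to 153), and 52.3 at 2-4 hpo. LOC105230666 reached 88.0 at 5-8 hpo, against 0.179 at 0-1 hpo, and LOC105229657 reached 120 at 5-8 hpo, against 1.88 at 0-1 hpo. LOC109579767 had 0 reads at 0-1 hpo and FPKM 26.5 at 5-8 hpo.

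Among the long noncoding RNAs that were lower, LOC105223468 had FPKM 0.144 at 5-8 hpo, against 10.03 at 0-1 hpo, 69.5-fold lower (37.5 to 146). LOC109579750 had 29.9 at 5-8 hpo, against 182 at 0-1 hpo, 6.10-fold lower (5.71 to 6.53), and LOC105231875 had 7.52 at 5-8 hpo and 68.5 at 0-1 hpo. The reference table gives no role for these RNAs. The long noncoding class had lower levels, with a median of 9.16 for the larger FPKM of each gene, against 37.0 for protein-coding genes.

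The 248 unnumbered gene models, which the deposited tables list without a gene number, included 54 that were at least 4-fold higher and 21 that were lower. Of the 248, 115 had FPKM below 1 at 0-1 hpo and entered through the 5-8 hpo library alone, among them 49 of the 54, so no direction is read from these counts. Novel00193 (NW_011876129.1, minus strand, 73202 to 74416) had 5646 reads and FPKM 270 at 5-8 hpo and 0 reads at 0-1 hpo, with an exonic length of 280 bases. Novel00371 (NW_011876400.1, minus strand, 3764148 to 3766258), abundant in the egg, went the other way, with FPKM 51.2 at 5-8 hpo, against 1789 at 0-1 hpo, 34.9-fold lower (33.6 to 36.3). Novel00293 had 26.4 at 5-8 hpo, against 466 at 0-1 hpo, 17.7-fold lower (17.2 to 18.1). Without the unnumbered models the median log2 difference of all genes compared was -0.19. How these models were built is not stated here.

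Single-exon models made up 105 of the 879 higher genes (11.9%), 65 of the 844 lower genes (7.70%) and 665 of all 8148 (8.16%). At 16-fold they were 44 of 247 higher genes (17.8%) and 18 of 141 lower genes (12.8%). Of the 492 genes switched on 77 (15.7%) were single-exon. Genes with large net differences in either direction also spanned more of the genome. The median span was 4148 bases for higher genes, 3956.5 for lower genes and 2776 for genes within 2-fold, and the median intronic length was 1607, 1443.5 and 461 bases.

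Both ends of the range of spans held more higher genes than the middle. Among 952 genes spanning up to 1 kb 13.2% were at least 4-fold higher, among 2316 genes of 2 to 5 kb 7.51%, and among 516 genes over 50 kb 16.5%. The share of lower genes was 8.51% in the shortest class, 9.84% at 2 to 5 kb and 14.7% over 50 kb. The longest class thus stood above the shares over all genes in both directions, and the shortest class in the higher direction only. Levels moved with span as well: the median of the larger FPKM was 32.4 up to 1 kb, 37.2 at 2 to 5 kb and 18.0 over 50 kb. The part of level in these shares was not tested.

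**Figure D4:**
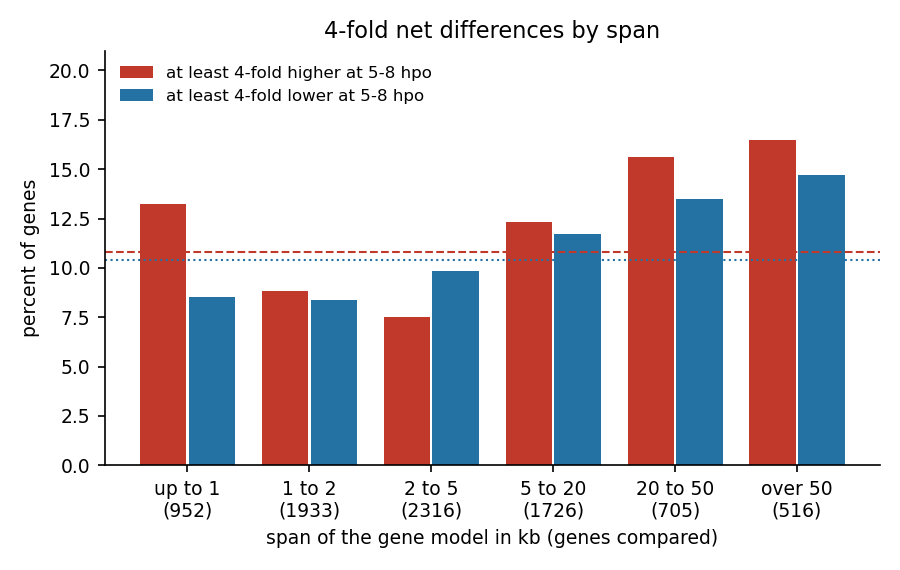
Percent of genes past 4-fold on the higher side (red) and on the lower side (blue) at 5-8 hpo, against 0-1 hpo, in 6 classes of gene span with the number of genes compared in brackets. The dashed and dotted lines mark the shares over all genes, 10.8% and 10.4%. Higher genes dip to 7.51% at 2 to 5 kb, and both shares are above the lines from 5 kb on.

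Adjacent genes shared direction at shares above the background. Among pairs of adjacent compared genes, the next gene was higher for 142 of 749 higher genes (18.96%), against 9.44% after genes that passed 4-fold in neither direction. The next gene was lower for 127 of 771 lower genes (16.5%), against 9.90% after such genes. Opposite neighbours were close to the background: a lower gene followed 78 of 749 higher genes (10.4%), and a higher gene followed 71 of 771 lower genes (9.21%). Pairs of higher genes lay a median of 11448.5 bases apart and pairs of lower genes 3807. Of the pairs, 89 of 142 and 64 of 127 were on 1 strand, and 8 and 11 had overlapping models, whose reads the counting could have divided. Most called genes still stood alone, in 695 runs of 1 among higher genes and 671 among lower genes, counting neighbours among all gene models.

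The longest stretch of higher genes lay on scaffold NW_011876219.1, from 246353 to 404336, and was picked out after its values were seen. It holds 11 gene models from LOC105221989 to LOC105222000, of which 10 were at least 4-fold higher at 5-8 hpo. All 10 were single-exon, all had 0 reads at 0-1 hpo and 1 to 14 reads at 2-4 hpo, and they had 1029 to 7831 reads at 5-8 hpo. Their FPKM at 5-8 hpo ranged from 8.87 in LOC105221996 to 128 in LOC105221997, with a median of 62.9. Exonic lengths ran from 809 to 1550 bases, and 7 models were on the plus strand and 3 on the minus strand. The exception, LOC105221993, has several exons and had FPKM 0.457 at 5-8 hpo and 0.753 at 0-1 hpo.

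The stretch ended sharply. The next model, LOC105222001, starts at 404933 and had FPKM 33.2 at 5-8 hpo and 36.7 at 0-1 hpo. On the other side LOC105221988 had 1.33 at 5-8 hpo and 0.980 at 0-1 hpo. All 11 models are listed as protein-coding with no name in the reference table. Whether the 10 share sequence, and so reads, was not tested.

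**Figure D5:**
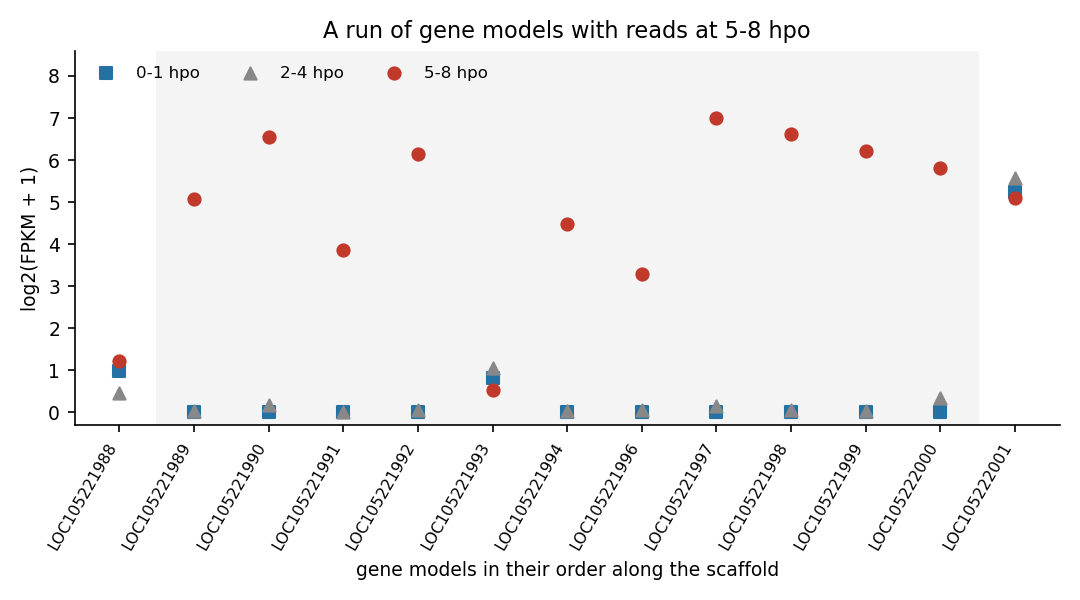
log2(FPKM + 1) at 0-1 (blue squares), 2-4 (grey triangles) and 5-8 hpo (red circles), 1 library per age, for the 11 gene models of the stretch (shaded) and 1 model on either side, in their order along the scaffold. In 10 of the 11 the 0-1 and 2-4 hpo values lie near 0 and the 5-8 hpo value far above, while LOC105221993 and both flanking models differ little between ages.

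Shorter stretches, also picked out after their values were seen, also held neighbours without reads at 0-1 hpo. LOC105224159, LOC109579409 and LOC105224161 lie side by side on NW_011876298.1, plus strand, from 95184 to 132899. They had 0 reads at 0-1 hpo, 29 to 106 reads at 2-4 hpo and FPKM 632, 252 and 109 at 5-8 hpo. On NW_011876400.1, from 1784004 to 1804528, 4 models of which 3 are single-exon had 0 reads at 0-1 hpo and FPKM 4.25 to 10.1 at 5-8 hpo. These 4 lie inside the span of LOC105232592, which had FPKM 0.602 at 5-8 hpo and 0.233 at 0-1 hpo. As the strand setting of the counting is not known here, reads of overlapping models cannot be told apart.

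Stretches of lower genes were shorter. On NW_011876398.1, minus strand, from 4768292 to 4773075, LOC105232174, LOC105232243 and LOC105232175 lie within 4784 bases. LOC105232243 had FPKM 0.984 at 5-8 hpo, against 272 at 0-1 hpo, 276-fold lower (201 to 390), and LOC105232174 had 6.61 at 5-8 hpo, against 79.8 at 0-1 hpo, a 12.1-fold loss (11.4 to 12.8). The third gene, LOC105232175, had 4.76 at 5-8 hpo and 1333 at 0-1 hpo. The longest run of lower genes, of 4 models on NW_011876189.1 from 279685 to 390258, held LOC105233962 and 3 others between 4.96- and 15.1-fold lower. Its members stood at very different egg levels, from FPKM 4.96 to 254.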

How the data were processed

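RNA from embryos of 3 ages was sequenced as 1 library per age, and the 5-8 hpo library was compared with the 0-1 hpo library, with 2-4 hpo used for the course of each gene. Per the labels' protocols, RNA was extracted with Trizol and messenger RNA was taken up on poly-T beads, with random-hexamer priming before Illumina sequencing. HISAT2 2.0.4 (aligner) and HTSeq 0.9.1 (read counter) are named in the submitters' processing notes. The sources used here name no genome build, annotation, strand setting or filter. FPKM values were made by the authors and are named so per the file headers. The authors also deposited raw counts per gene, whole numbers, with each model's scaffold, position, strand and summed exon length. FPKM and count together imply a length, which was over 0.1% away from the listed one in 2449 of 9305 genes measured at both ages (26.3%). It was equal between libraries, so ratios are unaffected.

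Values were compared on log2(FPKM + 1), with Python 3.11.15, numpy 2.4.6, pandas 2.3.3 and scipy 1.17.1. Folds of single genes are ratios of FPKM, bounded by an exact binomial interval conditional on the sum of both counts. A count of 0 at 0-1 hpo was replaced by 3 reads, and the fold is then printed as a minimum. Names and gene types came from a RefSeq table of assembly ASM2337382v1 (11887 of 13489 identifiers matched), whose coordinates were not used. Positions are those of the deposited tables.

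Named genes were chosen by size: among genes with an informative name and FPKM of 10 or more in either library the 15 largest rises and 15 largest falls, up to 4 members of each list with FPKM of 5 or more, and, named or not, the 10 largest rises, the 10 largest falls and the 5 most abundant genes of each library. Of 35 planned lists 12 had a gene that matched by name. The other genes described, namely the risers and fallers of the top 100, noncoding and unnumbered models, stretches of neighbours and named genes outside the rule, were picked with their values in view. The members and lists were chosen with earlier results of these data known. No genome, promoter or protein sequence was used here, so the planned motif and protein searches were not run. The procedure was tested on simulated counts with counting error only. Changes were planted and intervals checked there only in genes with many reads, so intervals resting on few reads were not covered by that test. Alternatives covered the scale, the pseudocount, the filter, the on and off threshold and the set of models.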

Additional observations from a re-analysis of the deposited data

How the results depend on the processing

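Over 11 summary results, 98 of the values under alternative settings stayed within the bounds used (1.5 times the reported count or share of reads, or the exact interval of the share of higher genes) and 10 moved. When the pseudocount was 0.1 rather than 1, 1347 genes were at least 4-fold higher (879 as reported), 738 at least 16-fold higher (247), 229 at least 16-fold lower (141), and 166 single-exon models were among the higher genes (105). On RPM, with no length term, 375 genes were at least 16-fold higher. The share of higher genes among 4-fold differences, 51.0% as reported, was 55.7% after median-of-ratios scaling, 55.1% with a pseudocount of 0.1 and 48.5% with a filter at FPKM 5. On the TPM scale it was 48.8%, within the interval, which treats genes as independent, but on the other side of an even split. With a threshold of FPKM 10, 314 genes were switched on (492) and 76 switched off (125), by the construction of a stricter threshold. Lowering the pseudocount brings in low genes by construction. The cause of the other moves was not tested. Without models that overlap another, an alternative added after seeing the data, 715 genes were at least 4-fold higher and 646 lower, by the construction of a smaller set. Leaving out the filter on low values could not change the 4-fold and 16-fold counts, which already need an FPKM above 1. For single genes 231 values stayed within the counting interval, 129 moved by more, and none past 4-fold changed sign. Where a gene had no reads at an age, a tolerance of 1 log2 unit stood in for that interval. No paired analysis was possible because there was a single library at each age. For genes without reads, depth sets a limit of 0.0401 RPM at 5-8 hpo and 0.0440 RPM at 0-1 hpo.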

Other observations

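A comparison of 5-8 with 0-1 hpo alone can miss genes that differ at 2-4 hpo only. Of the 3993 genes within 2-fold between 5-8 and 0-1 hpo, 190 (4.76%) were at least 4-fold lower at 2-4 hpo than at both other ages, and 0 were at least 4-fold higher there. LOC105224289 (NW_011876301.1, minus strand, 1004727 to 1005948, 1 exon) had FPKM 99.9 at 0-1 hpo, 6.74 at 2-4 hpo and 105.7 at 5-8 hpo. LOC105231586 (NW_011876396.1, minus strand, 1651258 to 1654415) had 52.8, 3.12 and 48.9 at the 3 ages, and LOC105231603 (same scaffold, plus strand, 2231113 to 2237633) had 44.8, 2.77 and 41.9. LOC105226781 had 86.2, 6.97 and 93.8. All rest on the single 2-4 hpo library.

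The transfer RNA and pseudogene models in the comparison were few and low, and all 5 and all 3 of them had FPKM below 1 at 0-1 hpo, so they entered through the 5-8 hpo library alone. Of 5 transfer RNA models, 1, listed as Trnam-cau, was at least 4-fold higher, with 33 reads at 5-8 hpo and 1 at 0-1 hpo (ratio 30.1, interval 5.03 to 1223). All 3 pseudogene models had 0 reads at 0-1 hpo and 114 to 735 reads at 5-8 hpo, and 2 of them were at least 4-fold higher. LOC105223164 among them had FPKM 5.91 at 5-8 hpo. Reads shared between a pseudogene and its parent gene could not be separated here.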
